A study of Homo sapiens with 6 samples.

Results

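The genes described here are 6 inhibitors of cyclin-dependent kinases (CDKN1A, CDKN1B, CDKN1C, CDKN2A, CDKN2B and CDKN2C) and 4 G1 cyclins (CCND1, CCND2, CCND3 and CCNE1), 10 of the 58735 genes in the deposited table. They were taken from that table by symbol, and were chosen by a rule made with the log2 fold changes of siFUBP1 against siMock in these same 6 samples known, so the values of that contrast describe these genes and carry no test. RNA was sequenced from cells labelled as MG63, an established human osteosarcoma line. The cells were transfected with siRNA against FUBP1 (siFUBP1, 3 samples) or with a negative control siRNA (siMock, 3 samples), and RNA was extracted 48 h later. FUBP1 encodes far upstream element-binding protein 1, a nuclear protein that binds single-stranded DNA and RNA. The labels give no other agent or allele for either group, and which FUBP1 siRNA was used for sequencing is not named in the sources used here.

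Passage from G1 into S phase is driven by D-type cyclins with CDK4 or CDK6 and by E-type cyclins with CDK2, which phosphorylate RB and release the E2F factors. The CIP/KIP inhibitors p21 (CDKN1A), p27 (CDKN1B) and p57 (CDKN1C) bind cyclin-CDK complexes. They block CDK2, while p21 and p27 also help D-type cyclins to assemble with their kinases. The INK4 inhibitors p16 (CDKN2A), p15 (CDKN2B) and p18 (CDKN2C) bind CDK4 and CDK6 alone, and in osteosarcoma the genes for RB and p16 are known sites of loss.

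Total counts were between 16309900 and 17484313 reads per sample. FUBP1, the targeted gene, was at 255.5 ± 18.5 CPM (counts per gene scaled to a common library size with TMM factors) in siMock and 46.9 ± 5.33 CPM in siFUBP1 (mean ± SD, n = 3 each, as for all such values below), a log2 difference of -2.44 (SE 0.0895). The labelled cell type was checked against its markers, and several of its defining genes were absent or near 0. Of 9 osteoblast and mesenchymal markers, COL1A2 and IBSP had a count of 0 in every sample, SPARC had at most 5 reads and ALPL at most 1. SPP1 had 1 to 2 reads in siMock and 7 to 22 in siFUBP1, and BGLAP 2 to 4 and 8 to 13. Both were too low to be tested. The marker genes that were tested did not move together. COL1A1 fell from 113 ± 4.675 to 45.5 ± 0.150 CPM (log2 fold change -1.32, adjusted p = 1.83e-13), while VIM rose from 149 ± 9.05 to 194 ± 16.98 CPM (0.38, adjusted p = 0.00021). RUNX2 rose from 0.448 ± 0.0564 to 4.05 ± 1.70 CPM (3.15, adjusted p = 4.53e-08), on only 6 to 8 reads in a siMock sample and 39 to 97 in a siFUBP1 sample. Of 8 markers of other cell types, KRT8, an epithelial keratin, fell from 1989 to 993 CPM, and CD3E was at 0. The other epithelial markers were low and overlapped between the groups, with EPCAM at 1.59 FPKM (fragments per kilobase of gene length, scaled by library size) in siMock and 1.82 in siFUBP1 and CDH1 at 0.150 and 0.134. The summed level of the 9 osteoblast and mesenchymal markers lay between 39.2 and 42.1 FPKM in siMock and between 41.3 and 47.1 in siFUBP1. That of the 8 other markers lay between 265 and 310 FPKM in siMock and between 137 and 152 in siFUBP1, nearly all of it from KRT8 (286 ± 22.4 and 143 ± 7.76 FPKM). The part of these markers in the results was not tested. The libraries are therefore called by their labels, siMock and siFUBP1. The labels do not say whether the 3 samples of a group were separate cultures. The p-values given for other genes set the group difference against the variation between these samples, moderated over all genes. They may not cover the variation between separate cultures.

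All 3 cyclins that were detected, CCND1, CCND3 and CCNE1, were lower in siFUBP1, as were the inhibitors CDKN1A and CDKN1C. CDKN2A and CDKN2B, neighbours on chromosome 9, were higher. The groups overlapped for CDKN1B and CDKN2C, and CCND2 was not detected. Of the 9 genes tested, 7 passed at an adjusted p below 0.05 by edgeR's quasi-likelihood test, where 60.2% of the 16116 genes tested did so. These were 2 higher and 5 lower in siFUBP1, and the shares of all genes were 30.1% in the higher direction and 30.1% in the lower. With a log2 fold change beyond 1 in addition, 6 were called, where 17.3% of all genes were. These were 1 higher (8.16% of all genes) and 5 lower (9.13% of all genes). The 3 siFUBP1 samples lay wholly above or below the 3 siMock samples for 7 of the 9 genes, and for 63.9% of all genes. The median log2 fold change was -1.29 over the 9 genes and 0.00 (0.00197) over all genes tested. Since the genes were picked with this contrast known, nothing is read from these counts.

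**Figure D1:**
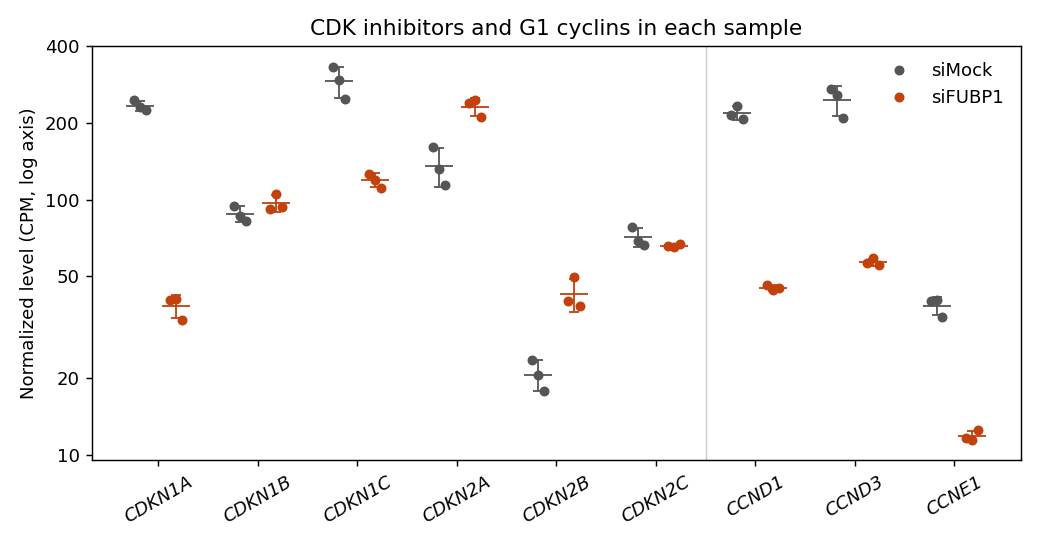
Normalized level (CPM, log axis) of the 9 detected genes in each of the 6 samples, with siMock in grey and siFUBP1 in orange. Points are samples, horizontal lines the group means and error bars the SD (n = 3); the vertical line parts inhibitors from cyclins, and the groups overlap for CDKN1B and CDKN2C and for no other gene.

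Promoter windows, 250 bases before to 50 bases after a RefSeq start (GRCh38.p14), were at hand for 7 of the 10 genes, with 12 windows in all. The windows shown are those of CDKN1A, the inhibitor with the lowest ratio of siFUBP1 to siMock, of CCNE1, the cyclin with a single window, and of CDKN2A and CDKN2B, the genes that were higher. CDKN2A has a separate start for p16 and for ARF, which shares exons with p16 but is read in another frame. The letters GGGCGG, the core of the GC box bound by SP1, are in capitals on either strand (CCGCCC on the other strand), and neighbouring matches may share bases.
CDKN1A, chr6:36678464-36678763, plus strand: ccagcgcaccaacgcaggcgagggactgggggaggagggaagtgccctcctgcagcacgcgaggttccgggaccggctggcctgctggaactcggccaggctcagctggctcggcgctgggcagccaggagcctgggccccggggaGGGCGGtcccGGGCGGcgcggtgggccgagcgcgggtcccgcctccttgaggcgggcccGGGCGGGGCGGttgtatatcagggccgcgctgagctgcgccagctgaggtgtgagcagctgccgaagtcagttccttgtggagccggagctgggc
CCNE1, chr19:29811741-29812040, plus strand: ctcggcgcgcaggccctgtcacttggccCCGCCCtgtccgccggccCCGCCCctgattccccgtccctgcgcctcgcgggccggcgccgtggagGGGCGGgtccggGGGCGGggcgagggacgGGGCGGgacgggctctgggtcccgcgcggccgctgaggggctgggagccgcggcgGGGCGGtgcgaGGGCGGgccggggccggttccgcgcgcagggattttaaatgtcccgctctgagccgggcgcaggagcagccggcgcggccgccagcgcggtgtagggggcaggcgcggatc
CDKN2A at the p16 start, chr9:21974808-21975107, minus strand: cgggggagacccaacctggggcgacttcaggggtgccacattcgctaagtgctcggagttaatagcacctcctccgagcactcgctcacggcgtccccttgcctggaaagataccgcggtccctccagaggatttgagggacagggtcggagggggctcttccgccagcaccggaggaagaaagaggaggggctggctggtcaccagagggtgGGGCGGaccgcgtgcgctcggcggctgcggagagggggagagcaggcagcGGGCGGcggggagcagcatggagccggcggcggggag
CDKN2A at the ARF start, chr9:21995275-21995574, minus strand: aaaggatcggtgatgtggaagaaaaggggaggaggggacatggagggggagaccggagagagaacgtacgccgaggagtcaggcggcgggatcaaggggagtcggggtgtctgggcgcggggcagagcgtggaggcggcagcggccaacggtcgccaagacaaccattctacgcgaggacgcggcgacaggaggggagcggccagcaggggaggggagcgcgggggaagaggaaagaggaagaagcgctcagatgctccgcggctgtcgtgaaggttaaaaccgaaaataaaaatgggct
CDKN2B, chr9:22009256-22009555, minus strand: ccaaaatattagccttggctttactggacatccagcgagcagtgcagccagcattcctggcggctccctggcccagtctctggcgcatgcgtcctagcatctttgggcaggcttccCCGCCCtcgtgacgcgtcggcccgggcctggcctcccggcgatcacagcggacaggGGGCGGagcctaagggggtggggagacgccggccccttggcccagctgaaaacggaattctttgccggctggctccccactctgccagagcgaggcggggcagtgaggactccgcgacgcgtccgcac

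GGGCGG was found 7 times in the CCNE1 window, 4 times in that of CDKN1A, and 2 times each at the p16 start and in the CDKN2B window. It was not found at the ARF start. In all, 9 of the 12 windows held it, against 45.0% of 35116 windows of 27305 genes. The GC content of the 5 windows shown was 81.0% for CCNE1, 74.3% for CDKN1A, 69.0% and 63.3% for the p16 and ARF starts and 67.3% for CDKN2B, and the median of all windows was 58.7%. The windows of CCND3, which was lower in siFUBP1, held it 0, 4 and 5 times. GC boxes were thus present in genes lower and in genes higher in siFUBP1, in differing numbers. Whether they bear on the levels of these genes was not tested. TATAAA (11.5% of all windows), the E2F forms TTTCCCGC (1.63%) and TTTGGCGC (0.652%), and TGATGNAA (3.62%), a form bound by ATF4, were searched on both strands and found in none of the 12 windows. The E-box CACGTG (7.26%) was found in 2 windows, both at alternative starts of CDKN2C. A match of letters is a description of the window and not a binding site.

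CDKN1A encodes p21, a CDK inhibitor known for arresting the cell cycle under stress, and had the lowest ratio of siFUBP1 to siMock among the 9 detected genes. It is ENSG00000124762, at chr6:36676460-36687339 on the plus strand (GENCODE release 29, GRCh38, as for all gene positions below). Its level was 246, 230.3 and 225 CPM in siMock replicates 1 to 3 and 40.4, 40.8 and 33.6 CPM in siFUBP1 replicates 1 to 3. The groups stood far apart, and the lowest siMock sample was several times the highest siFUBP1 sample. The mean in siFUBP1 was 16.4% of that in siMock, a log2 fold change of -2.61 (SE 0.0875). Behind these levels were between 3508 and 4008 reads in a siMock library and between 587 and 707 in a siFUBP1 library. The antisense gene DINOL, which shares 146 exonic bases with CDKN1A, had 5 reads over all 6 samples.

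CDKN1C encodes p57, an imprinted inhibitor with roles in growth and differentiation, and was the most abundant of the 10 genes per length in siMock. The gene (ENSG00000129757) lies at chr11:2883213-2885773 on the minus strand. It was at 329, 295 and 249 CPM in siMock and at 126, 119.9 and 111 CPM in siFUBP1. The groups did not overlap, and the siMock samples were spread more widely, with a coefficient of variation of 13.9% against 6.33% in siFUBP1. The siFUBP1 mean was 40.9% of the siMock mean, with a log2 fold change of -1.29 (SE 0.0905).

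CDKN1B, the gene for p27, did not follow its relatives. It is ENSG00000111276, at chr12:12715058-12722371 on the plus strand. Its level was 94.7, 86.15 and 82.7 CPM in siMock and 92.1, 106 and 93.5 CPM in siFUBP1. The groups overlapped, since siMock replicate 1 lay above 2 of the siFUBP1 samples. The log2 fold change was 0.14 (SE 0.0817). It ranged from 0.06 (0.0593, with the correction for GC content and length) to 0.24 (library size alone), and was 0.09 (0.0863) without siFUBP1 replicate 2. With scaling by library size alone or by upper quartiles, 3 of the inhibitors and cyclins passed in the higher direction in place of 2, CDKN1B being the gain, so its side of the threshold depends on the scaling. The abundance of p27 is known to be set largely by translation and by degradation of the protein, which these data do not measure.

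The INK4 genes were not alike either. CDKN2A (ENSG00000147889, chr9:21967753-21995301, minus strand) was at 161, 131.5 and 114 CPM in siMock and at 239, 245 and 211 CPM in siFUBP1. All siFUBP1 samples lay above all siMock samples, although siMock alone spread with a coefficient of variation of 17.6%. The ratio was 1.71, with a log2 fold change of 0.77 (SE 0.1), below the threshold of 1. The count of this gene pools the p16 and ARF transcripts whose starts are shown above, so a change of either cannot be told apart. CDKN2B-AS1, on the opposite strand, shares 341 exonic bases with CDKN2A and had 408 reads over the 6 samples, and the use of strand in the counting is not stated.

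CDKN2B (ENSG00000147883, chr9:22002903-22009363, minus strand) encodes p15, known as a target of TGF-beta signalling, and was the least abundant inhibitor per length in siMock. It was at 23.5, 20.6 and 17.9 CPM in siMock and at 39.97, 49.9 and 38.15 CPM in siFUBP1. The groups did not overlap, and siFUBP1 replicate 2 was the highest sample. The ratio was 2.07 and the log2 fold change 1.05 (SE 0.113), just past the threshold. It was 0.92 in limma on log2(FPKM + 1), 0.99 with a correction for GC content and length, 0.95 without siMock replicate 3 and 0.93 without siFUBP1 replicate 2, each below the threshold. CDKN2B is therefore the gene that is counted as called or not according to these choices.

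CDKN2C encodes p18, an INK4 protein whose gene is apart from the other loci, at chr1:50960745-50974633 on the plus strand (ENSG00000123080). It was at 78.4, 69.0 and 66.4 CPM in siMock and at 65.7, 65.3 and 66.8 CPM in siFUBP1. The groups overlapped at their edge, and the siFUBP1 samples were tight, with a coefficient of variation of 1.16%. The log2 fold change was -0.11 (SE 0.0830), and it was 0.04 (0.0391) with the correction for GC content and length, so that no direction is given for this gene.

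CCND1 encodes cyclin D1, the D-type cyclin most often raised by growth factor signalling and amplified in tumours. It is ENSG00000110092, at chr11:69641087-69654474 on the plus strand. It was at 214, 233 and 207 CPM in siMock and at 46.4, 44.1 and 45.1 CPM in siFUBP1. The groups stood far apart, with a coefficient of variation of 2.50% within siFUBP1. The siFUBP1 mean was 20.7% of the siMock mean, a log2 fold change of -2.27 (SE 0.0808). The gene shares 497 exonic bases with LTO1 on the opposite strand, which had 2452 reads over the 6 samples and a log2 fold change of 0.28, a difference in the other direction.

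CCND3 encodes cyclin D3 and was, in FPKM, about as abundant as CCND1, on gene lengths that merge all annotated exons. The gene (ENSG00000112576) covers chr6:41934933-42050357 on the minus strand. Its level was 272, 256 and 208 CPM in siMock and 56.5, 58.9 and 55.3 CPM in siFUBP1. The groups did not overlap, and siMock replicate 3 was the lowest of its group. The siFUBP1 mean was 23.2% of the siMock mean, with a log2 fold change of -2.11 (SE 0.0910). CCND2 (ENSG00000118971, chr12:4273772-4305350, plus strand), the remaining D-type cyclin, had a count of 0 in all 6 samples. In the sample with the smallest TMM library size a count of 0 allows a level of up to 0.192 CPM (3 reads), and CCND2 was not tested.

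CCNE1 (ENSG00000105173, chr19:29811898-29824308, plus strand) encodes cyclin E1, which activates CDK2 at the end of G1 and is itself an E2F target. It was at 40.1, 40.4 and 34.8 CPM in siMock and at 11.6, 11.5 and 12.5 CPM in siFUBP1. The groups did not overlap. The siFUBP1 mean was 30.8% of the siMock mean, a log2 fold change of -1.70 (SE 0.105).

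**Figure D2:**
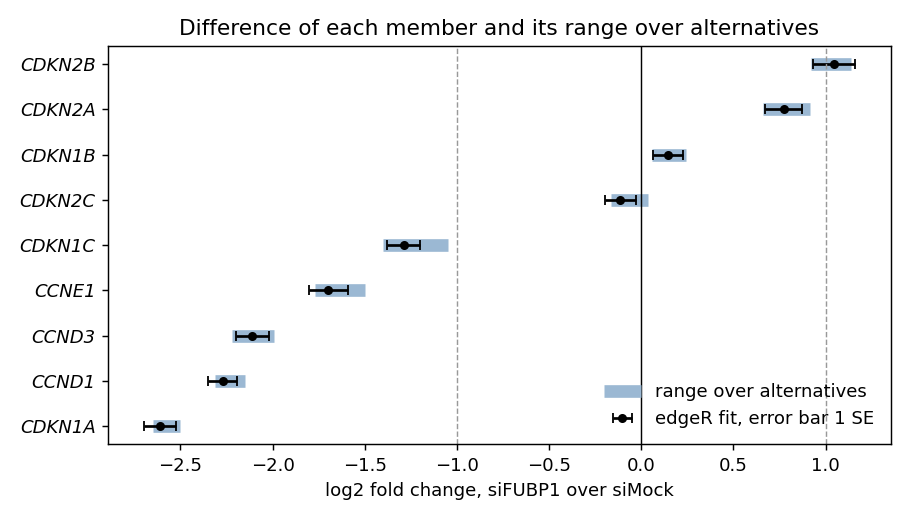
Log2 fold change of siFUBP1 over siMock for the 9 tested genes, with points for the edgeR fit, error bars of 1 SE and blue bands for the range over 16 alternative settings. Dashed lines mark log2 fold changes of -1 and 1; the bands of CDKN1A, CCND1, CCND3, CCNE1 and CDKN1C lie left of -1, that of CDKN2B crosses 1 and that of CDKN2C crosses 0.

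Over the 16 settings (other scalings, filters and tests, and each sample left out in turn), the log2 fold change stayed between -2.65 and -2.5 for CDKN1A, between -2.31 and -2.15 for CCND1, and between -2.22 and -1.99 for CCND3. It stayed between -1.77 and -1.5 for CCNE1, between -1.40 and -1.05 for CDKN1C and between 0.66 and 0.91 for CDKN2A. The siMock libraries were not equal for these genes. Replicate 3 had the lowest CPM of its group for all 9 detected genes, and replicate 1 the highest for 7 of the 9. In siFUBP1, replicate 3 was the lowest for 5 of the 9 and replicate 2 the highest for 5.

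Levels of different genes were compared per length, as deposited FPKM. The length is that of all annotated exons of a gene merged, not that of the transcripts expressed. It was 5802 bases over 23 annotated transcripts for CCND3 and 4830 over 6 for CCND1. The order of genes, sums and shares below depend on these lengths, and no other length was tried. In siMock, CDKN1C stood highest at 116 ± 16.3 FPKM, followed by CDKN1A at 75.7 ± 3.55, and their ranges were apart from each other and from the rest. CCND1 (44.6 ± 2.94 FPKM), CCND3 (41.8 ± 5.72), CDKN2A (30.9 ± 5.46) and CDKN1B (30.9 ± 2.19) came next, and the ranges of neighbours in that order overlapped. CDKN2C (21.2 ± 1.88), CCNE1 (14.9 ± 1.25) and CDKN2B (5.03 ± 0.687) followed with ranges apart.

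In siFUBP1 the order of the inhibitors was another one. CDKN2A came first at 53.1 ± 4.28 FPKM, with a range that overlapped that of CDKN1C (47.8 ± 3.04). CDKN1B (34.3 ± 2.73 FPKM) and CDKN2C (19.8 ± 0.189) were next, each apart from its neighbours. CDKN1A (12.5 ± 1.33 FPKM), CDKN2B (10.5 ± 1.58), CCND3 (9.75 ± 0.350) and CCND1 (9.30 ± 0.209) formed a run of overlapping neighbours, and CCNE1 was lowest at 4.62 ± 0.205. CDKN1A, at the second place in siMock, thus stood beside CDKN2B, which had been the lowest detected gene.

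Summed over genes, the CIP/KIP inhibitors made 244, 223 and 201 FPKM in the 3 siMock samples and 96.1, 99.1 and 88.4 FPKM in the 3 siFUBP1 samples. The INK4 inhibitors made 65.8, 55.7 and 49.98 FPKM in siMock and 84.2, 88.3 and 77.6 FPKM in siFUBP1. The INK4 share of the summed FPKM of the 6 inhibitors was 20.4% ± 0.724 in siMock and 46.8% ± 0.237 in siFUBP1. Within it, CDKN2A alone made 10.99% ± 0.776 of the inhibitor total in siMock and 29.9% ± 0.674 in siFUBP1, while CDKN1A made 27.2% ± 1.68 and 6.996% ± 0.364. By FPKM, the inhibitors were thus mostly CIP/KIP in siMock and nearly equal between both families in siFUBP1.

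The D-type cyclins summed to 90.2, 91.6 and 77.6 FPKM in siMock and to 19.2, 19.2 and 18.7 FPKM in siFUBP1. CCND1 made 51.8% ± 2.91 of that sum in siMock and 48.8% ± 1.29 in siFUBP1. CCND1 and CCND3 thus contributed about equally to the summed FPKM in either group. The summed FPKM of the 6 inhibitors over that of the 4 cyclins was 2.76 ± 0.168 in siMock and 7.52 ± 0.433 in siFUBP1. These sums and ratios rest on the merged gene lengths. They are of mRNA and are not amounts of protein. In bulk RNA, fewer cells that express a gene and less of its RNA per cell cannot be told apart, and the cell cycle phases of the samples were not measured.

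**Figure D3:**
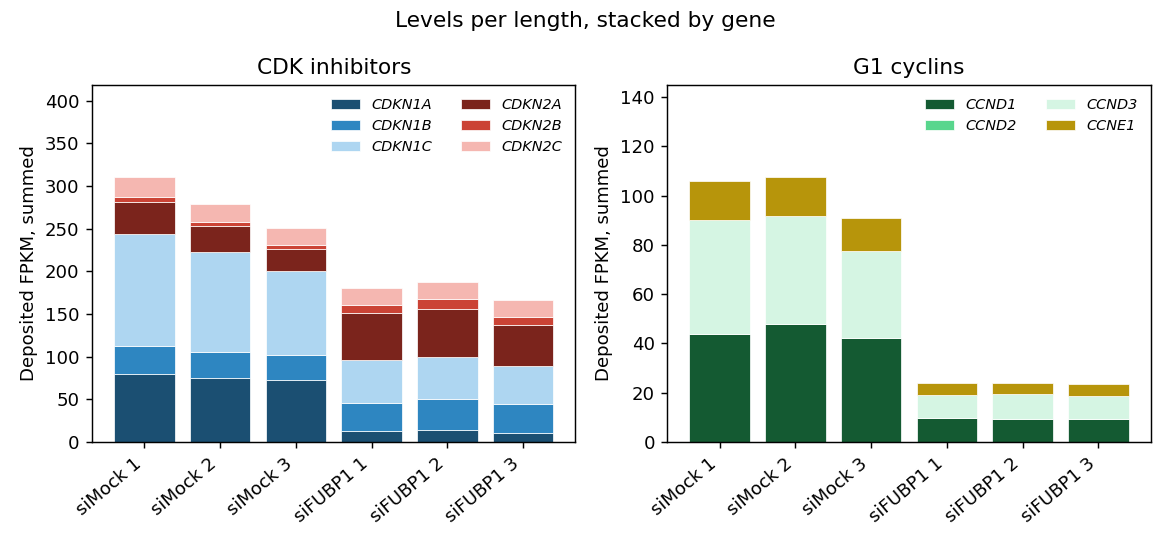
Deposited FPKM of the 6 inhibitors (left) and the 4 cyclins (right), stacked by gene for each of the 6 samples on linear axes from 0. The cyclin stack is between 91.0 and 107 FPKM in siMock and near 23.7 in siFUBP1, and the red INK4 genes take up more of the inhibitor stack in siFUBP1; CCND2 is at 0.

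The kinases that these proteins bind were then examined, with 12 genes on a list of G1 kinases and other G1/S cyclins and inhibitors. Of 11 tested, 6 rose, 2 fell and 3 did not pass the test (adjusted p below 0.05), with a median log2 fold change of 0.44. Over all genes tested, 30.1% rose, 30.1% fell and the median was 0.00 (0.00197), which also stands beside each list below. The lists, too, were chosen with earlier results of these data known. Their counts and adjusted p-values therefore describe the listed genes alone. CDK6 rose from 306 ± 26.2 to 846 ± 48.2 CPM (log2 fold change 1.47, SE 0.0845, adjusted p = 7.56e-14). CDK4 rose from 92.6 ± 4.32 to 170 ± 2.93 CPM (0.88, SE 0.0754, adjusted p = 1.85e-10). CDK7, the catalytic subunit of the CDK-activating kinase, rose by 1.14 (SE 0.0871). CDK2, the partner of cyclin E, was at 229 ± 14.9 and 240.4 ± 14.6 CPM and did not pass (0.07, SE 0.0784, adjusted p = 0.462). CCNE2, the second E-type cyclin, fell from 17.4 ± 1.05 to 5.64 ± 1.09 CPM (-1.62, SE 0.146), close to the difference of CCNE1. CDC25A, a phosphatase that activates CDK2, fell by 0.35 (SE 0.0855).

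Set beside these kinases, the summed FPKM of CDK4 and CDK6 was 53.5 ± 1.39 in siMock and 122 ± 3.33 in siFUBP1. The FPKM of D-type cyclins per unit of CDK4 and CDK6 was 1.61 ± 0.142 in siMock and 0.156 ± 0.00493 in siFUBP1. That of the INK4 genes per unit of the same kinases was 1.07 ± 0.168 in siMock and 0.683 ± 0.0425 in siFUBP1. Although 2 of the 3 INK4 genes were higher in siFUBP1, their mRNA was thus lower in relation to that of the kinases they bind.

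Of 18 genes of the RB family, the E2F factors and the DREAM complex, a repressor of cell cycle genes, 4 rose, 6 fell and 8 did not pass, with a median of -0.04. RB1 was at 72.7 ± 5.61 CPM in siMock and 78.2 ± 7.01 in siFUBP1 (0.11, SE 0.0860, adjusted p = 0.299). Its relative RBL1 rose by 0.52 (SE 0.0867) and LIN54, a DNA-binding DREAM subunit, by 0.87 (SE 0.0989). E2F2, an activator of S phase genes, fell by 0.85 (SE 0.0924), and LIN52, another DREAM subunit, by 1.12 (SE 0.132). The number that rose was 8 with scaling by library size alone and 2 without siMock replicate 2 or without siFUBP1 replicate 3. Of 13 S phase and proliferation genes, 8 fell and 5 did not pass, with a median of -0.70. The replication licensing factor CDC6 fell from 148 ± 8.47 to 73.0 ± 4.66 CPM (-1.02, SE 0.0797, adjusted p = 3.13e-11), and the ribonucleotide reductase subunit RRM2 fell by 0.97 (SE 0.0819). None of the 13 rose, but 2 did with the correction for GC content and length.

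Of 24 transcription regulators of CDK inhibitor and G1 cyclin genes, 23 were tested, 11 rose, 6 fell and 6 did not pass, with a median of 0.22. ETS1, known to activate the p16 promoter, rose from 45.6 ± 1.37 to 114 ± 5.76 CPM (1.33, SE 0.0803, adjusted p = 2.06e-13). ID1, which opposes ETS factors there, fell from 463 ± 54.7 to 131 ± 4.42 CPM (-1.82, SE 0.0866, adjusted p = 2.09e-15). KLF6, a zinc finger factor known to activate CDKN1A, rose from 18.04 ± 2.45 to 48.1 ± 2.45 CPM (1.41, SE 0.103), while CDKN1A was lower. TP73, a transcription factor known to activate CDKN1A, fell from 5.25 ± 0.943 to 1.24 ± 0.433 CPM (-2.08, SE 0.263). Its level was low in both groups, with 71 to 97 reads in a siMock sample and 16 to 30 in a siFUBP1 sample. Whether any of these genes bears on the level of the inhibitors or cyclins was not tested.

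Of 19 ubiquitin ligases and other turnover factors of these proteins, 18 were tested, 5 rose, 9 fell and 4 did not pass, with a median of -0.22. USP2, a deubiquitinase that stabilizes cyclin D1, fell from 20.3 ± 1.62 to 4.78 ± 0.459 CPM (-2.09, SE 0.138, adjusted p = 1.28e-12). AMBRA1, the substrate receptor that leads D-type cyclins to degradation, fell by 0.93 (SE 0.0884). FBXW7, the receptor for cyclin E, rose by 0.83 (SE 0.136), and CUL4A, the scaffold of a ligase that acts on p21, rose by 0.85 (SE 0.0852). USP2 and AMBRA1, with opposite known effects on D-type cyclins, thus both fell.

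**Figure D4:**
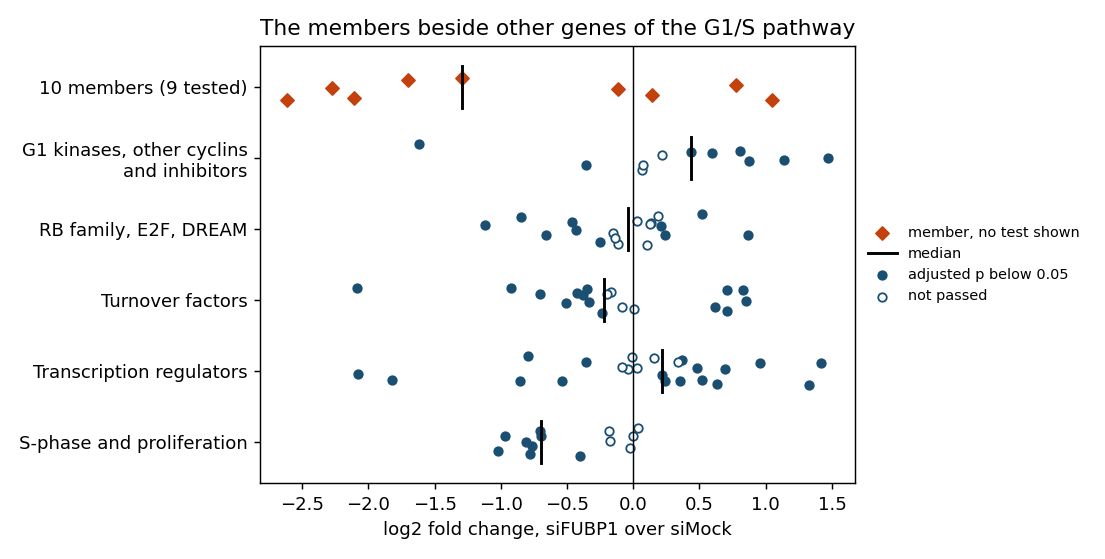
Log2 fold change of siFUBP1 over siMock for the 9 tested inhibitors and cyclins (orange diamonds) and for the genes of 5 lists (circles, filled where the adjusted p was below 0.05), with a black bar at each median. The median is -1.29 for the members, -0.70 for S phase genes and between -0.22 and 0.44 for the other lists.

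CDKN2A and CDKN2B lie beside each other on chromosome 9, in a region that is often deleted whole in tumours. All 6 siMock and siFUBP1 samples had reads on both genes and on MTAP, the next gene, so their mRNA was present here. Of 6 listed neighbours, 5 were tested, 2 rose, 2 fell and 1 did not pass. MTAP rose from 34.6 ± 1.64 to 51.5 ± 5.21 CPM (0.58, SE 0.0931), in the direction of CDKN2A and CDKN2B. The antisense CDKN2B-AS1 fell from 5.06 ± 0.346 to 3.10 ± 0.939 CPM (-0.70, SE 0.218), in the other direction. KLHL9 fell by 0.51 (SE 0.0962), IFNE rose by 2.16 (SE 0.434) on a mean of 20.2 reads per sample, and DMRTA1 did not pass (0.46, SE 0.220, adjusted p = 0.0739). ELAVL2 had a count of 0 in every sample.

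The antisense strands of the 3 siRNAs that the study lists against FUBP1 are shown with bases 2 to 8, the seed, in capitals, because seed matches can lower mRNAs other than the target.
RNAi#1: uAAACUGAaugcgaacacctt
RNAi#2: uAAGAGGUuugucagcacctt
RNAi#3: uUUCUUCUaugaguugccgtt

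Matches to these seeds were sought in the annotated 3′ UTR of 1 transcript per gene (GENCODE release 29). A 7mer matches bases 2 to 8, or bases 2 to 7 followed by an A, and an 8mer has both. Of the 9 detected genes, CDKN1A and CCND1 held a match and the other 7 did not. CCND1 had 2 7mers for RNAi#1, 2 7mers for RNAi#2, and 1 8mer and 1 7mer for RNAi#3, in 3192 bases. CDKN1A had 1 7mer for RNAi#1 and 1 for RNAi#3, in 1537 bases. The matched bases of the CDKN1A sites and of the CCND1 8mer are in capitals below, on the plus strand of GRCh38.
CDKN1A, RNAi#1, chr6:36685867-36685889: ccttagtcTCAGTTTgtgtgtct
CDKN1A, RNAi#3, chr6:36686715-36686737: gacacacaAGAAGAAgggcaccc
CCND1, RNAi#3, chr11:69652471-69652494: gccagtcaAGAAGAAAaaggtttg

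Among 19355 genes with a 3′ UTR, 24.5% held such a match for RNAi#1, 17.7% for RNAi#2 and 30.6% for RNAi#3. An 8mer for RNAi#3 was held by 12.0%. CCND3, CCNE1 and CDKN1C, which were also lower in siFUBP1, held none for any of the 3. Their 3′ UTRs were shorter than those of CDKN1A and CCND1, at 1007, 531 and 703 bases, and the shares above are not matched for length. Whether the matches bear on the levels of CDKN1A and CCND1 was not tested.

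For the most abundant inhibitor and cyclin by count, CDKN1C and CCND3, the genes with the most similar pattern over the 6 samples were sought among 12661 genes, by Pearson's r of log2 CPM. LTBP4 (r = 0.9998) and C12orf57 (r = 0.9996) were most like CDKN1C, with log2 fold changes of -0.90 and -1.05. A4GALT (r = 0.9999) and DUSP9 (r = 0.9993) were most like CCND3, with log2 fold changes of -2.44 and -1.75. Such values were shared by many genes, since 1.81% of the genes compared had an r above 0.99 with CDKN1C and 3.44% with CCND3. The 6 samples share the contrast that chose the genes, so these correlations describe the pattern alone.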

How the data were processed

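Poly(A) RNA of 3 siMock and 3 siFUBP1 samples, grouped by their titles, was analysed. The authors deposited 1 table of 58735 genes with read counts per gene, not normalized, and their processing notes list HISAT2 2.0.5, StringTie 1.3.3b, featureCounts 1.5.0-p3 and DESeq2 1.16.1. The use of strand is not given in the sources used here. FPKM values were deposited by the authors, who scaled each library by a factor of its own: they were 0.949 to 1.03 times FPKM recomputed from the counts, which leaves ratios within a sample as they are. The deposited signal columns (group means), log2 fold changes and p-values of the authors' own comparison were not used. All genes match GENCODE release 29 (GRCh38).

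Counts were fitted with edgeR 4.0.16 in R 4.3.3 (TMM factors 0.959 to 1.05, expression filter by group, robust quasi-likelihood F test, Benjamini-Hochberg adjustment over 16116 genes). Genes passed at an adjusted p below 0.05 and were called with an absolute log2 fold change above 1 in addition. CPM values use TMM library sizes. Each SE is the absolute log2 fold change divided by the square root of the F statistic of that gene. The fits were tried on simulated data in which few genes changed, with 1 dispersion for all genes. Since 60.2% of the genes passed in these data, the scaling under so many differences was not tested by it. No samples held identical counts, and the chi-square per gene between any pair of samples was at least 5.83. The limit from a count of 0 covers counting error only. The members and the gene lists were chosen with earlier results of these data known. The genes named are the 10 members, FUBP1, CDK2, CDK4, CDK6, RB1, the genes beside CDKN2A and CDKN2B, and from each list up to 2 genes with the largest rise and 2 with the largest fall among those that passed with a mean of at least 50 counts. The results of 1 further gene and 1 further list are not reported here. Markers, overlapping genes and the genes of most similar pattern are named in addition.

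Alternatives were DESeq2 1.42.0, limma 3.58.1 on log2(FPKM + 1) and log2(FPKM + 0.1), a correction for GC content and length, the replicate number as a block, no fold threshold, other filters and scalings, FPKM recomputed from counts, and leaving out each sample. Recomputed FPKM used the same counts and gene lengths, so it could hardly change the order of genes and is no check of it.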

Additional observations from a re-analysis of the deposited data

How the results depend on the processing

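Of 403 values under alternative settings, 389 kept their direction and their side of the threshold, or stayed within 1.5 times the count. The log2 fold change of CDKN2C turned to 0.0391 with the GC content and length correction. The number of inhibitors and cyclins called higher was 1, from CDKN2B. It was 0 with limma on log2(FPKM + 1) and with the GC content and length correction, and 2 where the fold change had no threshold. Leaving out samples in turn gave 0 to 1, with 0 without siMock replicate 3 or without siFUBP1 replicate 2. The number that passed in the higher direction was 3, with CDKN1B added, in place of 2 with library size alone or upper-quartile factors. The number called lower was 5 in each setting tried. Of the RB, E2F and DREAM genes, 8 rose with library size alone in place of 4, and 2 to 4 with samples left out in turn. Of the S phase genes, 2 rose with the GC content and length correction in place of 0. The causes were not tested. The samples share only replicate numbers: same-numbered samples correlated by 0.0309, 0.0643 and 0.284 in their deviations from the group means, and replicate 1 of siMock correlated best with replicate 2 of siFUBP1 (0.177). With the replicate number as a block, 10014 genes passed in place of 9695, CDKN1A stayed at -2.61, and no call of the inhibitors and cyclins changed. Limits are the 3 samples a group, the pooling of p16 and ARF, the unstated strand, markers that go against the labelled line, and CDKN2B lying at the threshold.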
